A study of Mus musculus with 12 samples.

Results

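Of the 17710 genes measured in mouse liver, 23 were expressed in 1 strain and close to absent in the other, 15 in ICR and 8 in C57BL/6J. They were chosen by their read levels in CPM (counts of a gene as a share of its library, on the scaled library sizes used by the authors). A gene was taken when the lowest of its 6 values in a strain was at least 1 CPM and at least 8 times the highest of the 6 values in the other strain. Genes of ribosomal proteins were left out, which removed 4 genes of the C57BL/6J side and 0 of the ICR side. In comparison, 10737 genes reached 1 CPM in all 6 ICR libraries and 10880 in all 6 C57BL/6J libraries. Because the strain difference chose these genes, it is described here and not tested.

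Male mice were 8 weeks old at the start and were fed for 10 weeks, and RNA-seq of the liver was made from 3 mice in each of 4 groups. These were outbred ICR mice on CDAHFD (a high-fat diet that lacks choline and has amino acids in place of protein), ICR mice on normal chow diet (ND), inbred C57BL/6J mice on CDAHFD and C57BL/6J mice on ND. The CDAHFD impairs the export of fat from the liver and is used as a model of metabolic dysfunction-associated steatohepatitis. No group carried a transgene or a deletion made by the study. ICR is an outbred stock, so that mice of that group can differ in genotype, whereas C57BL/6J mice are near copies of each other. Library totals were 29665092 to 30826629 counts in ICR mice on CDAHFD, 23363460 to 24205176 in ICR mice on ND, 24612309 to 32214782 in C57BL/6J mice on CDAHFD and 22245245 to 22752858 in C57BL/6J mice on ND. Summed levels of 6 hepatocyte genes, among them Alb and Ttr, were lower on CDAHFD without overlap, at 70790 to 84630 CPM in ICR mice on CDAHFD and 90770 to 130100 CPM in ICR mice on ND, and at 47530 to 83430 CPM in C57BL/6J mice on CDAHFD and 110200 to 126500 CPM in C57BL/6J mice on ND. In bulk liver, fewer cells of a type and less RNA per cell cannot be told apart.

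Genes that differ this sharply between mouse strains often lie in families that arose by duplication. Copies made by tandem duplication stand side by side, and the number of copies differs between strains. Retrocopies arise in another way, when an mRNA is copied back into DNA and inserted elsewhere, so that they lack introns and resemble the spliced mRNA of a parent gene. Reads from a young copy and from its parent are nearly the same, and a read that holds none of the differing bases can belong to either.

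Both kinds of copy were found among the 23 genes. Of the ICR-only genes, 6 matched the transcript of another gene at more than 99% identity: Eif3j2 (parent Eif3j1), Gm5506 (annotated as Eno1b, parent Eno1), Gm5499 (parent Tmx2), Gm5900 (parent Lamtor3), Gm9825 (parent Rnps1) and Pcna-ps2 (parent Pcna). C1rb and Gm5077 (annotated as C1s2), which lie next to each other among the complement C1r and C1s genes, are tandem copies. Stretches of 60 bases within the coding sequence of the parent show how little separates a retrocopy from its parent and how much more separates the tandem copies. Each is a stretch with the most differing bases away from its ends, and the differing bases are in capitals. The sequences are spliced transcripts from GENCODE M21 on GRCm38, and positions count from the first base of the transcript (bases 55 to 114 for Gm5900, 1 to 60 for Gm5499, 454 to 513 for Gm9825, 120 to 179 for Pcna-ps2, 1961 to 2020 for C1rb and 1516 to 1575 for Gm5077).
Gm5900: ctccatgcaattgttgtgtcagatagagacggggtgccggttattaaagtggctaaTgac
Lamtor3: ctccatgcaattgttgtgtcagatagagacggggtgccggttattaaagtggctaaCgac
Gm5499: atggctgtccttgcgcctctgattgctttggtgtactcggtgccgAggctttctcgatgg
Tmx2: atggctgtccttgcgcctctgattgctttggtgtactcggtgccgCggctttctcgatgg
Gm9825: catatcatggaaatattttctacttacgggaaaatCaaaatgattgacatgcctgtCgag
Rnps1: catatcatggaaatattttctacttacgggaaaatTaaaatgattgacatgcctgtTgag
Pcna-ps2: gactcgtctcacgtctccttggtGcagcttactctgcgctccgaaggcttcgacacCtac
Pcna: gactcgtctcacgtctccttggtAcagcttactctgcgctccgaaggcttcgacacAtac
C1rb: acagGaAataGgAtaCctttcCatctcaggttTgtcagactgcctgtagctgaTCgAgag
C1ra: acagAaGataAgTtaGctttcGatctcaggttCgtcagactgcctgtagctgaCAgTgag
Gm5077: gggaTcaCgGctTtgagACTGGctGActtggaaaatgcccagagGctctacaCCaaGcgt
C1s: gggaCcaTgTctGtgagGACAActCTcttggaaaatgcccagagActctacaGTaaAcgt

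Over the whole alignment, Gm5900 differed from Lamtor3 at 2 of 375 bases, Gm5499 from Tmx2 at 5 of 885, Gm9825 from Rnps1 at 5 of 843 and Pcna-ps2 from Pcna at 6 of 781. Reads were paired, and a differing base in either read of a pair can separate a copy from its relative. The shares that follow are for single reads of 150 bases. Of all windows of that length, 33.2% held no difference between Gm5900 and Lamtor3, 22.7% between Gm5499 and Tmx2, 19.3% between Gm9825 and Rnps1 and 17.2% between Pcna-ps2 and Pcna. The share was larger for the other retrocopies, 75.8% between Eif3j2 and Eif3j1 and 55% between Gm5506 and Eno1. The tandem copies differed at more bases, C1rb from C1ra at 51 of 2431 aligned bases and Gm5077 from C1s at 108 of 2643. Of windows of 150 bases, 32.6% held no difference between C1rb and C1ra, where the differing bases are clustered, and 3.21% between Gm5077 and C1s. The sources used here do not say how the authors' counting treated reads with more than 1 best position, so the split of counts between a copy and its relative is uncertain.

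The levels of all 23 genes are plotted by library.

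**Figure D1:**
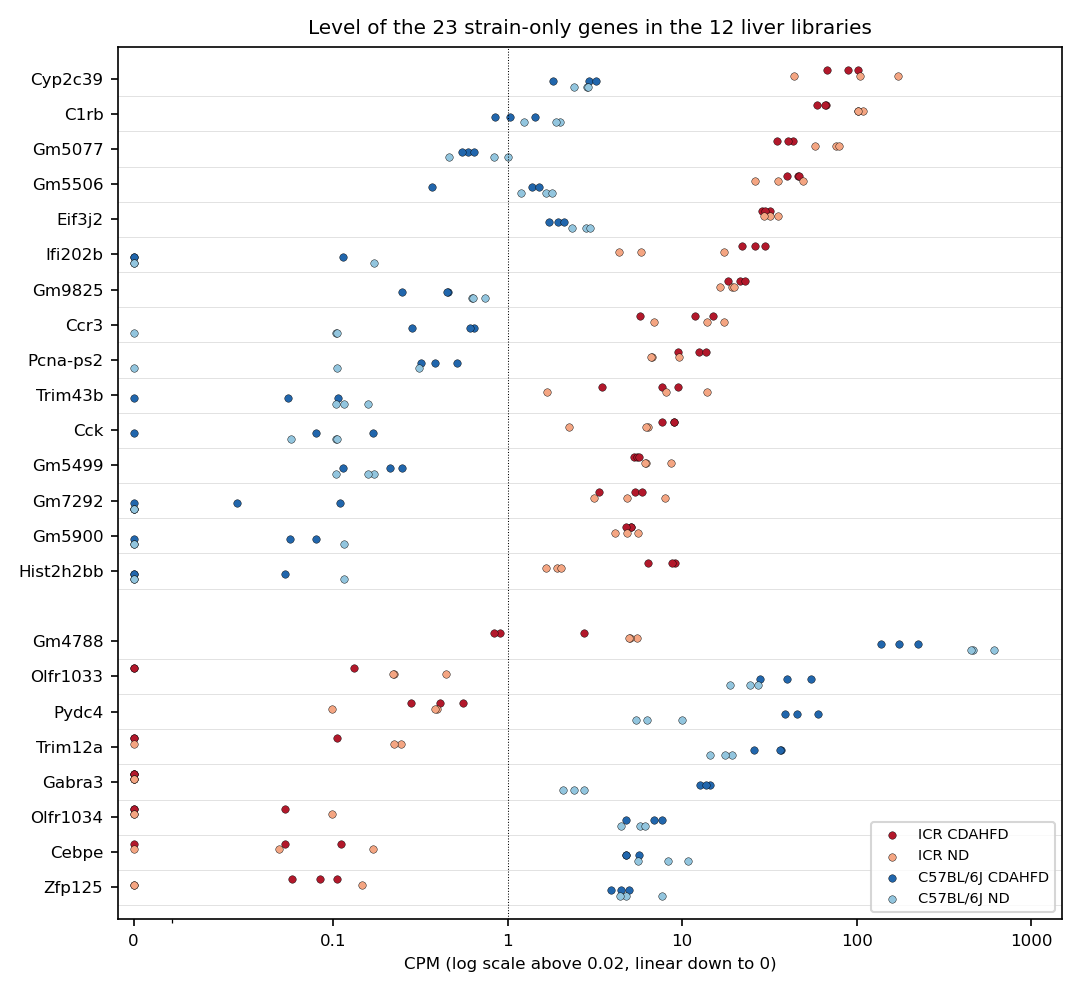
CPM of each gene (rows) in the 12 libraries, on a log scale above 0.02 CPM and a linear scale down to 0, with 1 point per mouse coloured by group and a dotted line at 1 CPM. The 15 ICR-only genes are above and the 8 C57BL/6J-only genes below, each set ordered by median CPM; Gabra3 had 0 counts in every ICR library, whereas Cyp2c39 and Eif3j2 stayed above 1 CPM in every C57BL/6J library.

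Per length, median levels in ICR mice ran from 2.90 to 52.4 FPKM (counts scaled by gene length and depth) over the ICR-only genes, with Cyp2c39 highest. In C57BL/6J mice they ran from 2.10 to 98.8 FPKM over the C57BL/6J-only genes, with Gm4788 highest. The percentiles of the ICR-only genes among expressed ICR genes ran from 27.4 to 91.7, so that they were spread from low to high. "Absent" is a matter of degree. Of the ICR-only genes, 8 had at least 1 C57BL/6J library with a count of 0 and 7 had at most 10 counts in every C57BL/6J library, but none was at 0 in all 6. Of the C57BL/6J-only genes, Gabra3 was at 0 in all 6 ICR libraries.

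The genes just inside the limit were Ccr3, whose lowest ICR value was 9.04 times the highest C57BL/6J value, Eif3j2 (9.67 times) and Trim43b (10.7 times). Just outside on the ICR side were Ceacam2 (7.14 times), Gm11710 (6.83 times) and Havcr1 (6.67 times). On the C57BL/6J side, Pydc4 (9.81 times) was just inside, and Dusp12 (7.46 times), Cep85 (7.05 times) and Rsph3b (6.80 times) were just outside. The next ratios of the C57BL/6J-only genes, of Gm4788 (25.2 times) and Zfp125 (26.7 times), were well above the limit. With CPM on plain library totals Cck, Ccr3, Cyp2c39, Eif3j2, Pcna-ps2 and Pydc4 no longer met the rule, and with FPKM Ccr3, Eif3j2, Gm5506, Hist2h2bb, Pcna-ps2, Trim43b, Gabra3 and Pydc4 did not. The limit therefore falls within a continuous range of ratios and not in a gap on the ICR side.

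Among the retrocopies, Gm9825 had the parent with the largest strain difference, Rnps1, an RNA-binding factor that takes part in splicing. Gm9825 had 21.5, 22.8 and 18.3 CPM in ICR mice on CDAHFD and 16.5, 19.2 and 19.7 CPM in ICR mice on ND, against 0.453, 0.452 and 0.248 CPM in C57BL/6J mice on CDAHFD and 0.623, 0.631 and 0.737 CPM in C57BL/6J mice on ND. Rnps1 had 10.6 to 13.2 CPM over the 6 ICR libraries, against 28.6 to 39.7 CPM over the 6 C57BL/6J libraries, and the strains did not overlap. Rnps1, which the rule did not use, was lower in ICR (log2 -1.46, SE 0.1, adjusted p = 1.69e-06 with edgeR's quasi-likelihood test). Summed over copy and parent, the level was 28.0 to 35.5 CPM in ICR and 29.1 to 39.9 CPM in C57BL/6J, which overlapped.

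Of the other parents, 4 were also lower in ICR. Eif3j1, a subunit of translation initiation factor eIF3, was lower in ICR (log2 -0.65, adjusted p = 0.00131), and Eif3j2 took 38.5 to 49.8% of the counts of the pair in ICR against 3.07 to 4.58% in C57BL/6J. Pcna, the sliding clamp of DNA replication, was lower in ICR (log2 -0.75, adjusted p = 0.000363), and Pcna-ps2 took 23.3 to 27.7% of the pair in ICR against 0 to 0.885% in C57BL/6J. Lamtor3, a scaffold protein of the late endosome, was lower in ICR (log2 -0.37, adjusted p = 0.00896), although not called on ND alone (adjusted p = 0.119), with 18.4 to 25.3% of the pair on Gm5900 in ICR against 0 to 0.590% in C57BL/6J. Eno1, the glycolytic enzyme enolase, was lower in ICR as well (log2 -1.27, adjusted p = 4.58e-05). Gm5506 took 37.5 to 42.2% of that pair in ICR, against 0.353 to 1.12% in C57BL/6J.

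Tmx2, a thioredoxin-related membrane protein, was the exception, since its difference was not called (log2 0.15, SE 0.09, adjusted p = 0.208 with edgeR). Gm5499 took the smallest share of its pair, 7.50 to 10.4% in ICR against 0.179 to 0.551% in C57BL/6J. In all, 5 of the 6 parents were lower in ICR and 0 were higher. Among all 13878 genes tested other than the 23, 17.9% were lower and 18.5% were higher in ICR. The median log2 difference was -0.70 over the 6 parents and -0.01 over all genes. The ratio of the summed level of copy and parent, ICR over C57BL/6J, was 0.948 for Gm9825, 0.967 for Gm5900, 1.13 for Eif3j2, 1.23 for Gm5499, 0.791 for Pcna-ps2 and 0.688 for Gm5506. The sums of 5 pairs were closer to equal between the strains than either gene of the pair alone, whereas for Gm5499 the parent alone was closer. This follows in part from the choice of the copies, which were taken for being high in ICR and near absent in C57BL/6J. Adding a copy therefore raises almost only the ICR side. Where the parent is lower in ICR, the sum then moves towards equality unless it overshoots. Whether the retrocopies are transcribed themselves or receive reads of their parents was not tested.

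**Figure D2:**
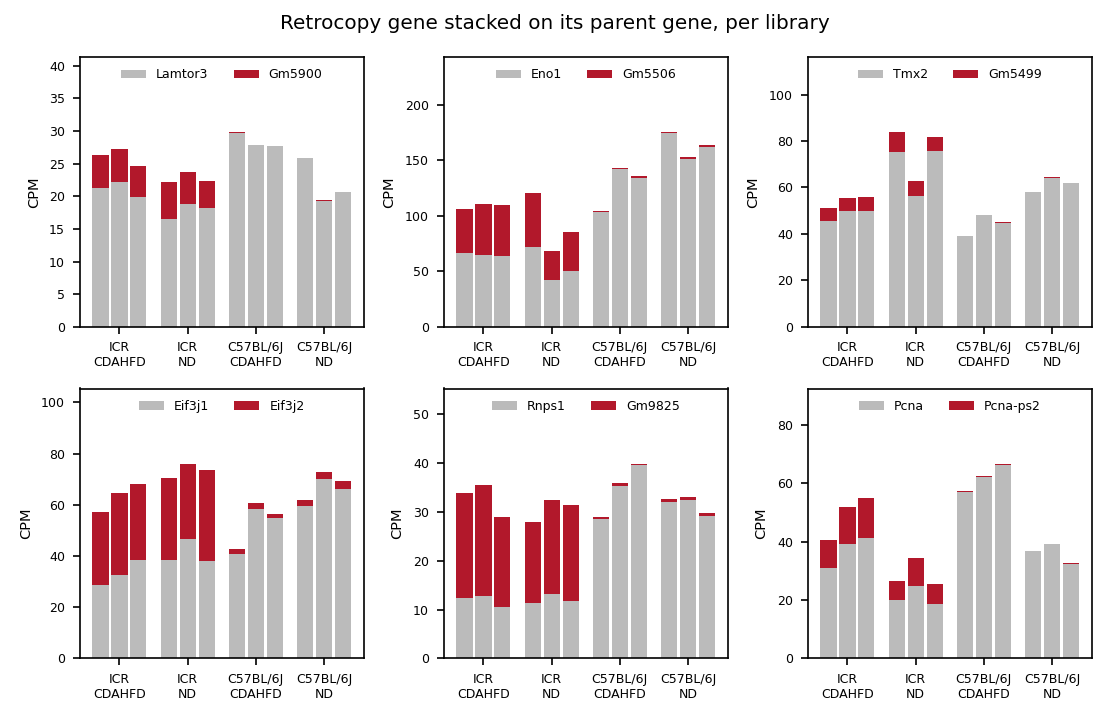
CPM of 6 retrocopy genes (red) stacked on the CPM of their parent genes (grey), 1 bar per library, with ICR mice on CDAHFD, ICR mice on ND, C57BL/6J mice on CDAHFD and C57BL/6J mice on ND from left to right. Red makes up 59.1 to 64.3% of the counts of the Gm9825 and Rnps1 pair in ICR and 0.621 to 2.47% in C57BL/6J, and the total heights of that pair overlap between the strains.

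Within ICR, the share of Pcna-ps2 in its pair stayed at 23.3 to 27.7% over both diets, although the level of the pair differed between them. The share ranged more widely for Eif3j2 (38.5 to 49.8%) and Gm5900 (18.4 to 25.3%). Pcna rose on CDAHFD in ICR (log2 0.80, SE 0.16, adjusted p = 0.00778), and in C57BL/6J mice too (log2 0.77, SE 0.13, adjusted p = 0.00105). Pcna-ps2 averaged 11.9 ± 2.19 CPM in ICR mice on CDAHFD and 7.61 ± 1.67 CPM in ICR mice on ND (SD, n = 3 each), a log2 difference of 0.63 that was not called (SE 0.21, adjusted p = 0.0522, edgeR). Eno1 and Gm5506 both had a log2 change of 0.24 on CDAHFD in ICR, and neither was called. Among the ICR mice on ND, the mouse with the least Eno1 (41.97 CPM) also had the least Gm5506 (26.3 CPM). The mouse with the most Eno1 (71.7 CPM) had the most Gm5506 (49.2 CPM). On CDAHFD the order in ICR was reversed. There the mouse with the most Eno1 (66.47 CPM) had the least Gm5506 (39.95 CPM), and the mouse with the least Eno1 (63.63 CPM) had the most Gm5506 (46.42 CPM).

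By annotation, 4 of these retrocopies are processed pseudogenes: Gm5499 on chromosome 17 (87078271 to 87079155), Gm5900 on chromosome 7 (104949915 to 104950289), Gm9825 on chromosome 6 (7982541 to 7983383) and Pcna-ps2 on chromosome 19 (9283380 to 9284160), all in GRCm38. Eif3j2 and Gm5506 are annotated as protein-coding genes and lie on chromosome 18. Their proteins as annotated were 100% identical to those of Eif3j1 and Eno1 over the aligned part. Of the 14 ICR-only genes in the annotation, 5 had a single exon (35.7%), against 1.70% of the expressed genes of ICR. Those 5 are retrocopies, whereas Gm5506 is annotated with 2 exons, and 92% of its transcript aligned to that of Eno1. Of the 7 C57BL/6J-only genes in the annotation 0 had a single exon, against 1.73% of the expressed genes of C57BL/6J. An annotated small RNA gene lies within Eif3j2 and a sense-overlapping gene around Gm5506, and reads of these cannot be told apart from theirs.

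The other ICR-only genes with close relatives belong to families of complement, drug metabolism and tripartite motif genes. C1r and C1s are the serine proteases of the first complement component, made by the liver. C1rb (chr6:124570294-124581171, plus strand) had 59.1, 66.4 and 65.8 CPM in ICR mice on CDAHFD and 102, 108 and 102 CPM in ICR mice on ND. In C57BL/6J mice it had 0.849, 1.04 and 1.43 CPM on CDAHFD and 1.25, 2.01 and 1.90 CPM on ND. Gm5077 (chr6:124624625-124636085, minus strand) had 34.8, 42.9 and 40.4 CPM in ICR mice on CDAHFD and 57.7, 76.4 and 78.8 CPM in ICR mice on ND, and 0.459 to 1.001 CPM over the 6 C57BL/6J libraries. In both genes the ICR mice on ND stood above those on CDAHFD with no overlap.

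The difference of neither relative was called. C1ra, with 96.0% protein identity to C1rb, had a median of 443 CPM in ICR and 370 CPM in C57BL/6J (log2 0.32, adjusted p = 0.0544). C1s, with 92.9% protein identity to Gm5077, had a median of 564 CPM in ICR and 583 CPM in C57BL/6J (log2 -0.07, adjusted p = 0.576). C1rb took 14.0 to 17.4% of the pair in ICR against 0.310 to 0.454% in C57BL/6J. The C1ra difference was called by DESeq2 (adjusted p = 0.0278) and without 1 of 3 libraries, at adjusted p = 0.0382 without C57BL/6J ND replicate 2, 0.0391 without ICR CDAHFD replicate 1 and 0.0234 without ICR ND replicate 1. Of 25 other complement genes tested, 11 were higher in ICR and 1 was lower, Cfhr2 (log2 -1.73, adjusted p = 0.000468), beside 18.5% higher and 17.9% lower over all genes. Those higher included C3 (log2 1.38, adjusted p = 0.0115), the convergence point of the complement pathways, and Cfb (log2 1.85, adjusted p = 0.00404), a protease of the alternative pathway.

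Cyp2c39 (chr19:39510862-39568529, plus strand) is a member of the Cyp2c cytochrome P450 family, enzymes that oxidize drugs, fatty acids and steroids. It had 101, 67.3 and 89.4 CPM in ICR mice on CDAHFD and 104, 43.8 and 173 CPM in ICR mice on ND, against 1.82 to 3.19 CPM over the 6 C57BL/6J libraries. Its closest relative Cyp2c38 (92.2% protein identity) went the other way, with a median of 21.3 CPM in ICR and 48.7 CPM in C57BL/6J (log2 -1.20, adjusted p = 0.0172). This difference was not called on CDAHFD alone (adjusted p = 0.0758) or on ND alone (adjusted p = 0.142). Cyp2c37 (log2 -2.93, adjusted p = 0.000158), Cyp2c50 (log2 -2.26, adjusted p = 0.000554, and 0.0689 on ND alone), Cyp2c54 (log2 -1.63, adjusted p = 0.00221), Cyp2c68 (log2 -0.77, adjusted p = 0.00359) and Cyp2c55 (log2 -1.31, adjusted p = 0.0424) were lower in ICR too. Averaged over the diets Cyp2c40 and Cyp2c29 were not called, but Cyp2c29 was called in opposite directions on the 2 diets, lower in ICR on CDAHFD (log2 -1.38, adjusted p = 0.0255) and higher in ICR on ND (log2 1.37, adjusted p = 0.0193). Its strain by diet term was not called (-2.75 on the log2 scale, SE 0.50, adjusted p = 0.0546 with edgeR). Cyp2c67, the next tested gene on the right of Cyp2c39, was higher in ICR (log2 1.18, adjusted p = 0.000154). Over the whole cytochrome P450 family, 15 of 76 other tested genes were higher and 17 were lower in ICR, shares near those over all genes (18.5% and 17.9%).

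Trim43b (chr9:89084624-89092835, minus strand), of a tripartite motif subfamily known from early embryos, varied widely between mice. It had 3.49, 9.42 and 7.69 CPM in ICR mice on CDAHFD and 13.9, 1.68 and 8.12 CPM in ICR mice on ND, against 0 to 0.158 CPM over the 6 C57BL/6J libraries. Its relative Trim43a (95.7% protein identity) was low in both strains, with a median of 1.02 CPM in ICR and 0.502 CPM in C57BL/6J (log2 1.13, adjusted p = 0.02). That call was lost without ICR CDAHFD replicate 3 (adjusted p = 0.0665) or ICR ND replicate 3 (adjusted p = 0.0529), on CDAHFD alone (adjusted p = 0.126) and on ND alone (adjusted p = 0.1). Trim43c was not called (log2 0.89, adjusted p = 0.0973).

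Of the remaining ICR-only genes, Ifi202b (chr1:173962568-173982744, minus strand) belongs to the Ifi200 family of interferon-inducible DNA-binding proteins and is known to differ between mouse strains. It had 21.9, 26.0 and 30.0 CPM in ICR mice on CDAHFD and 4.32, 17.4 and 5.82 CPM in ICR mice on ND. In C57BL/6J mice 4 of 6 libraries had 0 counts, with 4 and 3 counts in the others. Averaged over the diets, 5 of the 6 other tested Ifi200 genes were lower in ICR and 0 were higher, beside 17.9% lower and 18.5% higher over all genes. They were Mnda (log2 -2.86, adjusted p = 1.94e-05), Mndal (log2 -2.35, adjusted p = 0.00120), Ifi204 (log2 -1.49, adjusted p = 0.000963), Ifi203 (log2 -1.01, adjusted p = 0.00277) and Aim2 (log2 -0.52, adjusted p = 0.02), whereas Ifi205 was not called (log2 -0.97, adjusted p = 0.191). Ifi205 stood at log2 -3.14 on CDAHFD and 1.21 on ND, and Ifi203 at -1.76 on CDAHFD and -0.25 on ND, and the strain by diet term of neither was called (adjusted p = 0.197 for both).

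Ccr3 (chr9:124021972-124031689, plus strand) encodes a chemokine receptor best known from eosinophils. It had 5.76, 11.8 and 14.99 CPM in ICR mice on CDAHFD and 6.87, 17.3 and 13.8 CPM in ICR mice on ND, against 0.283, 0.638 and 0.606 CPM in C57BL/6J mice on CDAHFD and 0.104, 0 and 0.105 CPM in C57BL/6J mice on ND. Markers of eosinophils did not share this pattern. Of 8 listed eosinophil genes 6 were measured, and their summed level was 1.86 to 16.4 CPM in ICR and 3.17 to 25.0 CPM in C57BL/6J, most of it from Ear2. The granule protein genes Epx and Prg2 and the receptor gene Il5ra were at or near 0 in every library, with a highest value of 0.211 CPM. The adjacent chemokine receptor genes did not differ beyond the spread between mice, Ccr1 at log2 0.56 (adjusted p = 0.200) and Ccr2 at log2 -0.12 (adjusted p = 0.797).

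Cck (chr9:121489824-121495694, minus strand) encodes the gut and brain peptide cholecystokinin. It had 7.62, 8.96 and 8.92 CPM in ICR mice on CDAHFD and 2.26, 6.34 and 6.20 CPM in ICR mice on ND, and at most 6 counts in any C57BL/6J library. Hist2h2bb had 9.07, 8.72 and 6.38 CPM in ICR mice on CDAHFD and 1.67, 1.91 and 2.03 CPM in ICR mice on ND, and at most 2 counts in any C57BL/6J library. Its identifier belongs to a long non-coding RNA in the annotation used here (chr3:96269721-96279001, plus strand), which contains the histone H2B gene of that name on the same strand. The counts can therefore not be assigned to the histone mRNA alone. Gm7292, which was not placed in the annotation, had 3.14 to 7.97 CPM over the 6 ICR libraries and at most 4 counts in any C57BL/6J library.

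Of the C57BL/6J-only genes, Gm4788 (chr1:139697623-139781243, minus strand) had the highest level per length. It had 2.72, 0.901 and 0.836 CPM in ICR mice on CDAHFD and 5.49, 5.05 and 4.94 CPM in ICR mice on ND. In C57BL/6J mice it had 138, 223 and 175 CPM on CDAHFD and 466, 608 and 452 CPM on ND. Every ICR library stood below every C57BL/6J library, and within each strain the mice on CDAHFD stood below those on ND. The next tested gene to its right, Cfhr2, was lower in ICR as well, as given above.

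Pydc4 (annotated as Ifi213, chr1:173566283-173599274, minus strand) encodes a protein of the pyrin domain group within the Ifi200 cluster. It had 0.0981 to 0.555 CPM over the 6 ICR libraries, against 59.8, 39.0 and 45.6 CPM in C57BL/6J mice on CDAHFD and 10.02, 5.45 and 6.27 CPM in C57BL/6J mice on ND. It shared its direction with its relatives Pydc3 (93.4% protein identity, log2 -3.07, adjusted p = 4.53e-05) and Gm4955 (85.6% protein identity, log2 -4.85, adjusted p = 1.13e-05). Pydc4 and Ifi202b lie 363294 bases apart on chromosome 1 and are expressed in opposite strains. Within 500 kb of Ifi202b, 7 of 9 other tested genes were lower in ICR and 0 were higher.

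Trim12a (chr7:104299894-104315466, minus strand) is a relative of Trim5, which in primates encodes a factor that restricts retroviruses. It had 0.106, 0 and 0 CPM in ICR mice on CDAHFD and 0.245, 0.224 and 0 CPM in ICR mice on ND, against 36.9, 25.8 and 36.4 CPM in C57BL/6J mice on CDAHFD and 19.4, 14.4 and 17.6 CPM in C57BL/6J mice on ND. Its neighbours differed in both directions. Trim5 (93.3% protein identity) was lower in ICR (log2 -2.69, adjusted p = 0.0127), although not on ND alone (adjusted p = 0.243), as were Trim30d (log2 -3.34, adjusted p = 0.000150) and Trim34a (log2 -1.81, adjusted p = 0.000251). Trim34b (log2 2.91, adjusted p = 0.00293) and Trim6 (log2 3.19, adjusted p = 0.000121) were higher in ICR, whereas Trim12c (91.9% protein identity) was not called at a median of 35.7 CPM in ICR and 35.5 CPM in C57BL/6J. Over the Trim family as a whole, 8 of 45 other tested genes were higher and 9 were lower in ICR, close to the shares over all genes (18.5% and 17.9%). An annotated antisense gene overlaps Trim12a.

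Gabra3 (chrX:72432681-72656848, minus strand) encodes a subunit of the GABA-A receptor, a chloride channel of neurons. It had 0 counts in each of the 6 ICR libraries, against 14.5, 12.6 and 13.6 CPM in C57BL/6J mice on CDAHFD and 2.39, 2.06 and 2.74 CPM in C57BL/6J mice on ND. Set against 3 counts over the 6 ICR libraries, it was at least 537-fold lower in ICR. The next tested gene to its left, Gabre, encodes another subunit of the receptor. Gabre had counts in 1 of 6 ICR libraries, at 0.212 CPM, and 0.229 to 6.53 CPM in C57BL/6J, and was lower in ICR (adjusted p = 0.00226).

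Olfr1033 (chr2:86020633-86045171, plus strand) and Olfr1034 (chr2:86046444-86047466) are neighbouring odorant receptor genes only 1273 bases apart. Olfr1033 had 0.132, 0 and 0 CPM in ICR mice on CDAHFD and 0.441, 0.224 and 0.219 CPM in ICR mice on ND, against 54.8, 39.8 and 27.7 CPM in C57BL/6J mice on CDAHFD and 24.4, 27.2 and 18.7 CPM in C57BL/6J mice on ND. Olfr1034 had 4.48 to 7.67 CPM over the 6 C57BL/6J libraries and at most 2 counts in any ICR library. In C57BL/6J, the mouse with the least Olfr1033 on each diet also had the least Olfr1034 on that diet. The pseudogene Olfr1035-ps1 and a second annotated entry named Olfr1034 overlap the position used here for Olfr1034. That position came without a strand, so whether they share its strand is not known. The libraries marked strand, but the sources used here do not say whether the counting used it.

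Cebpe (chr14:54710360-54712174, minus strand) encodes a transcription factor of maturing granulocytes. It had at most 4 counts in any ICR library, against 5.63, 4.78 and 4.76 CPM in C57BL/6J mice on CDAHFD and 8.30, 5.56 and 10.7 CPM in C57BL/6J mice on ND. The 8 measured markers of neutrophils and granulocyte precursors summed to 3.43 to 23.2 CPM in ICR and 3.17 to 52.2 CPM in C57BL/6J, so that the strains overlapped. The library with 52.2 CPM of these markers, C57BL/6J ND replicate 2, had the lowest Cebpe of its group. Zfp125 (chr12:20877084-20921262, minus strand), an unprocessed pseudogene of a zinc finger protein, had 3.93 to 7.68 CPM in C57BL/6J and at most 4 counts in any ICR library. Another annotated pseudogene, 3110053B16Rik, spans its whole length on the same strand, and the pseudogene Gm10478 lies within it on that strand. The counts can therefore not be assigned to Zfp125 alone. Of 341 other zinc finger genes tested, 47 were higher and 69 were lower in ICR, beside 18.5% and 17.9% over all genes.

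Of the 22 genes with a known position, 8 lay within 1 Mb of another gene of the set (36.4%), against 2.67% of the 11147 placed genes that reached 1 CPM in all 6 libraries of a strain. They formed 4 pairs, and no 3 genes stood together. C1rb and Gm5077 were both ICR-only, Olfr1033 and Olfr1034 both C57BL/6J-only, and the pairs of Pydc4 with Ifi202b and of Trim12a with Gm5900 (634449 bases apart) were of opposite strains. The genes were spread over 12 chromosomes, with at most 3 on any of them.

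Of 40 genes that stood next to a gene of the set, 7 were higher and 10 were lower in ICR, 42.5% in all, whereas 36.4% of all genes tested were called. Around C1rb and Gm5077, the next tested gene Lpcat3 was not called (log2 0.15, adjusted p = 0.347). Next to the retrocopies Gm5499 and Pcna-ps2 none of the adjacent genes Cript, Socs5, Asrgl1 and Incenp was called. At the Ifi200, Trim and Gabra3 loci, in contrast, the genes on both sides of Pydc4, of Trim12a and of Gabra3 were called.

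**Figure D3:**
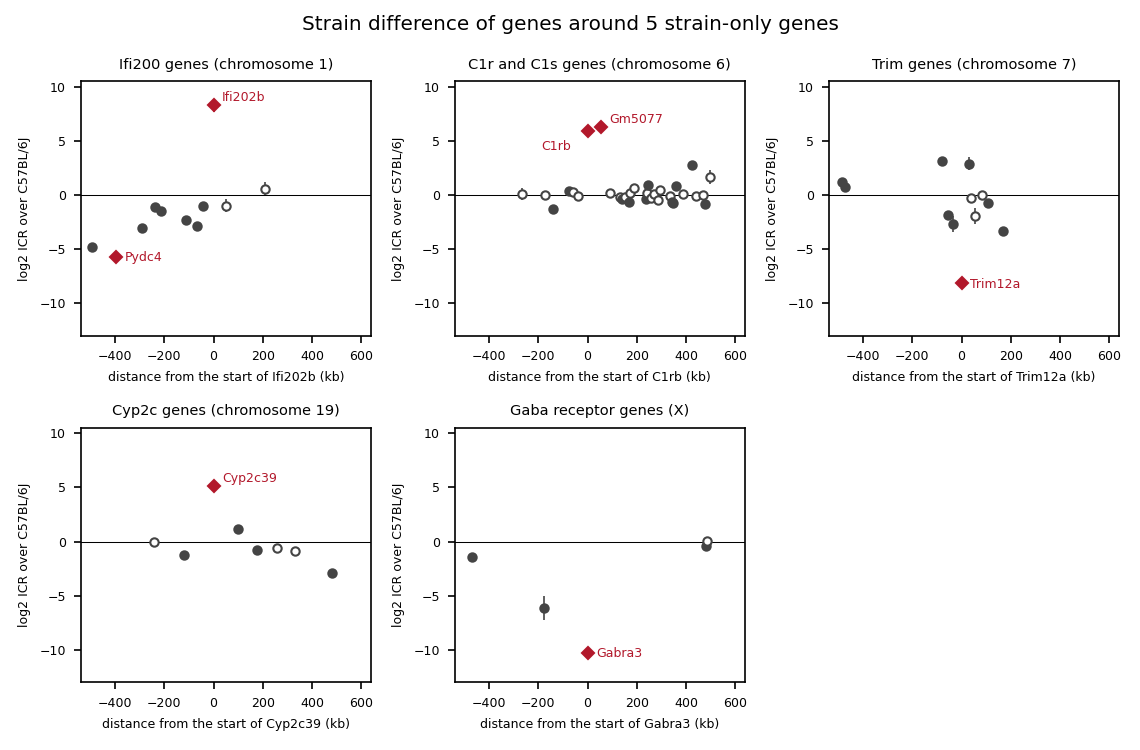
Log2 difference of ICR over C57BL/6J (vertical axis, bars of 1 standard error) of tested genes within 500 kb of 5 strain-only genes, by distance of the gene starts in kb. Red diamonds are strain-only genes, whose differences are shown as a description, and the fitted value of Gabra3 rests on 0 counts in ICR and is no bound; filled grey points had an adjusted p under 0.05 and open points did not. Around Ifi202b 7 of 9 other genes lie below 0 and were called, whereas most genes around C1rb lie near 0.

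Close relatives by protein sequence (at least 70% identity over at least 70% of the protein) that were not in the set numbered 22, of which 21 were tested. Of these, 12 were lower and 1 was higher in ICR, with a median log2 difference of -0.77, whereas 17.9% of all genes were lower and 18.5% were higher, with a median of -0.01. The relatives include 8 Cyp2c genes, so that they are not independent of each other. Among genes known to differ between laboratory strains, Ifi202b was in the set, and of the 10 others tested 3 were higher and 3 were lower in ICR. Those lower were Nlrp1b (log2 -4.15, adjusted p = 0.000169), Mx1 (log2 -2.70, adjusted p = 0.000793) and Ighg2c (log2 -1.37, adjusted p = 0.0307). Glo1 (log2 1.36, adjusted p = 0.000456), Gbp2b (log2 2.43, adjusted p = 0.0159) and C4b (log2 0.96, adjusted p = 0.0169) were higher. None of the MHC, globin or immunoglobulin genes was in the set. Of 24 MHC genes tested, 2 were higher and 11 were lower in ICR. Only 4 globin genes were tested, with 3 higher and 1 lower, and only 4 immunoglobulin genes, with 1 higher and 2 lower. Of 21 histone genes tested other than Hist2h2bb, 8 were higher and 2 were lower. The shares over all genes, 18.5% higher and 17.9% lower, stand beside each of these counts.

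The response to diet was tested within the strain that expressed the gene, since the choice of genes used no difference between diets. All 6 libraries of that strain had to reach 1 CPM, which limits how far a gene could have fallen on either diet. All 15 ICR-only genes and all 8 C57BL/6J-only genes could be tested. Of the ICR-only genes 2 rose and 2 fell on CDAHFD. In ICR, 20.1% of all genes tested rose and 16.5% fell, and of those with at least 1 CPM in all 6 libraries 15.3% rose and 19% fell. Of the C57BL/6J-only genes 4 rose and 2 fell. In C57BL/6J, 26% of all genes tested rose and 21.2% fell, and of those with at least 1 CPM in all 6 libraries 20.5% rose and 24.5% fell. The median absolute log2 change was 0.33 over the ICR-only genes, against 0.39 over genes with at least 1 CPM in all 6 ICR libraries and 0.48 over all genes of ICR. It was 0.86 over the C57BL/6J-only genes, against 0.43 over genes with at least 1 CPM in all 6 C57BL/6J libraries and 0.52 over all genes of C57BL/6J.

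In ICR, Hist2h2bb rose most, averaging 8.06 ± 1.46 CPM on CDAHFD and 1.87 ± 0.184 CPM on ND (SD, n = 3 each; log2 2.10, SE 0.24, adjusted p = 0.00124 with edgeR). Ifi202b averaged 26.0 ± 4.02 CPM on CDAHFD and 9.19 ± 7.19 CPM on ND (a change of log2 1.5, SE 0.48, adjusted p = 0.0449 with edgeR), and the diets did not overlap. The Ifi202b call was lost without any of 5 libraries, at adjusted p = 0.0834, 0.0988 and 0.113 without CDAHFD replicate 1, 2 or 3 and 0.0789 and 0.142 without ND replicate 1 or 3. C1rb averaged 63.8 ± 4.02 CPM on CDAHFD and 104 ± 3.66 CPM on ND (a change of log2 -0.72, SE 0.10, adjusted p = 0.00212 with edgeR). Gm5077 fell with it (log2 -0.86, SE 0.15, adjusted p = 0.00480).

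Both falls were about as large in the relatives of these genes, as C1ra (log2 -0.64, adjusted p = 0.0195) and C1s (log2 -0.91, adjusted p = 0.00294) also fell in ICR. In C57BL/6J mice, which hardly expressed the copies, C1ra (log2 -0.49, adjusted p = 0.0446) and C1s (log2 -0.60, adjusted p = 0.0159) fell too. The summed level of 6 hepatocyte genes moved the same way, with a median of 76400 CPM in ICR mice on CDAHFD and 129900 CPM in ICR mice on ND, and its part in these falls was not tested. With scaling by library totals alone, which moved the median gene of the diet comparison by 0.61 in ICR, C1rb had a log2 change of -0.11 (adjusted p = 0.362) and Gm5077 one of -0.25 (adjusted p = 0.125). Cyp2c39 was not called (log2 -0.33, SE 0.45, adjusted p = 0.602). Its relative Cyp2c29 fell in ICR to 9.86 ± 5.10 CPM on CDAHFD, against 2509 ± 577 CPM on ND (SD, n = 3 each; log2 -8.00, adjusted p = 0.000293 with edgeR). Of the 11 ICR-only genes that were not called, Cck had the largest change (log2 0.78, SE 0.37, adjusted p = 0.134), with no overlap between the diets.

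In C57BL/6J, Pydc4 averaged 48.1 ± 10.7 CPM on CDAHFD and 7.24 ± 2.44 CPM on ND (SD, n = 3 each; log2 2.72, SE 0.26, adjusted p = 5.51e-05 with edgeR). Its relatives Pydc3 (log2 2.62, adjusted p = 3.58e-05) and Gm4955 (log2 3.33, adjusted p = 0.000102) and the neighbouring Ifi204 (log2 2.56, adjusted p = 5.18e-06) rose as well in these mice. Gabra3 averaged 13.6 ± 0.944 CPM on CDAHFD and 2.40 ± 0.338 CPM on ND (a change of log2 2.49, SE 0.20, adjusted p = 2.33e-05 with edgeR), and Gabre rose beside it (log2 2.60, adjusted p = 0.0117). Trim12a averaged 33.0 ± 6.28 CPM on CDAHFD and 17.1 ± 2.54 CPM on ND (a change of log2 0.94, SE 0.18, adjusted p = 0.00281 with edgeR). Trim5 (log2 0.83, adjusted p = 0.0106) and Trim12c (log2 0.77, adjusted p = 0.00488) rose with it.

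Olfr1033 averaged 40.8 ± 13.6 CPM on CDAHFD and 23.4 ± 4.29 CPM on ND (SD, n = 3 each; log2 0.79, SE 0.25, adjusted p = 0.0252 with edgeR). The call was lost in a fit of all 12 libraries (adjusted p = 0.0649), at adjusted p = 0.0749 and 0.0508 without CDAHFD replicate 1 or 2, and at 0.0583 and 0.0963 without ND replicate 1 or 3. The neighbouring Olfr1034 was not called (log2 0.23, SE 0.25, adjusted p = 0.486), except with scaling by library totals alone (log2 0.89, adjusted p = 0.0207). Cebpe fell at the limit (log2 -0.71, SE 0.26, adjusted p = 0.0493) with overlapping diets. Its call was lost in the fit of all 12 libraries (adjusted p = 0.172), at adjusted p = 0.115 and 0.129 without CDAHFD replicate 2 or 3, at 0.104 and 0.192 without ND replicate 1 or 3, and with scaling by library totals alone (log2 -0.06, adjusted p = 0.875).

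Gm4788 fell in both strains although its level in ICR was low. In C57BL/6J it averaged 179 ± 42.5 CPM on CDAHFD and 508 ± 86.7 CPM on ND (SD, n = 3 each; log2 -1.52, SE 0.21, adjusted p = 0.000494 with edgeR). In ICR it averaged 1.49 ± 1.07 CPM on CDAHFD and 5.16 ± 0.294 CPM on ND (a change of log2 -1.79, SE 0.49, adjusted p = 0.0280 with edgeR). The hepatocyte genes summed to a median of 62990 CPM in C57BL/6J mice on CDAHFD and 113200 CPM in C57BL/6J mice on ND, and their part in the fall of Gm4788 was not tested. For the other genes of the set, the strain with the low level mostly gave too few counts for a test of diet.

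**Figure D4:**
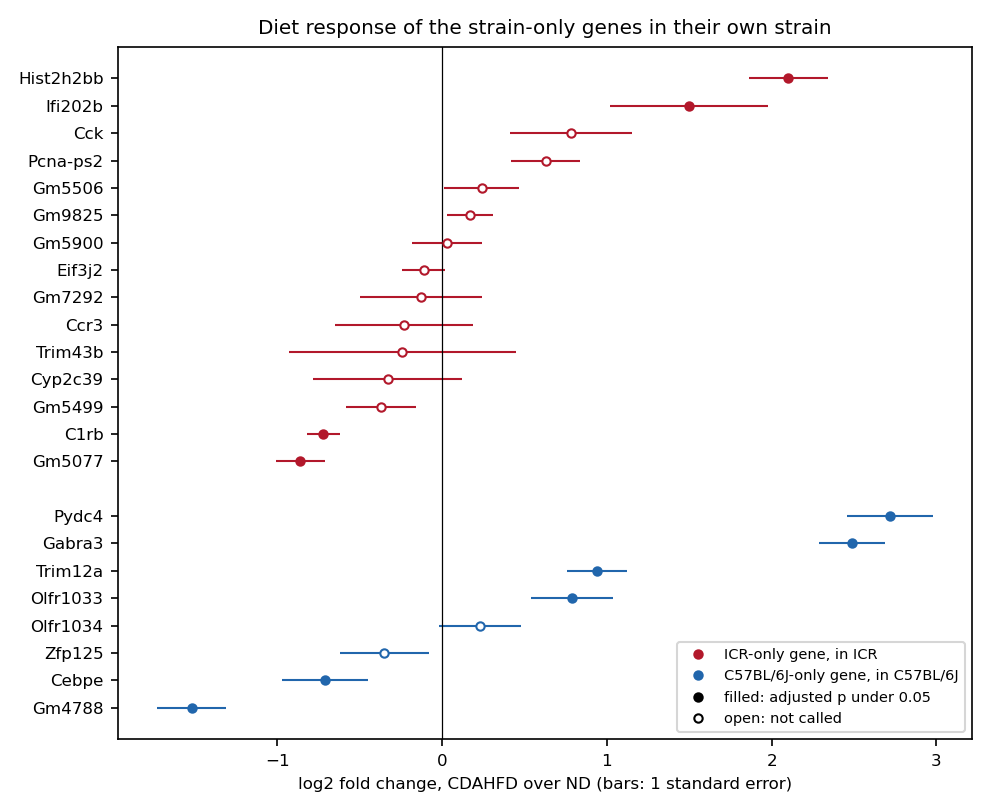
Log2 fold change of CDAHFD over ND for each strain-only gene in the strain that expresses it, with bars of 1 standard error, ICR-only genes in red above and C57BL/6J-only genes in blue below; filled points had an adjusted p under 0.05 and open points did not. Hist2h2bb and Ifi202b rose and C1rb and Gm5077 fell in ICR, and Pydc4, Gabra3, Trim12a and Olfr1033 rose and Cebpe and Gm4788 fell in C57BL/6J.

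Mice of a group differed somewhat more in these genes than in others. In ICR the median coefficient of variation was 11.1% over the 15 genes and 9.54% over expressed genes on CDAHFD, and 21.9% and 17.2% on ND. In C57BL/6J it was 20.6% over the 8 genes and 13.5% over expressed genes on CDAHFD, and 17.7% and 12.6% on ND. These coefficients were not tested.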

How the data were processed

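Liver RNA was measured in 12 libraries, 3 mice in each of 4 groups. According to the study's methods and the submitters' processing notes, reads were trimmed with fastp 0.23.4, aligned with HISAT2 2.2.1 and counted with featureCounts 2.0.6. The methods name the build mm10 and the notes name mm39, both made from C57BL/6J mice, and what this does to reads of ICR was not tested. The deposited table holds raw counts, FPKM and a CPM signal that the authors computed on scaled library sizes. Its 17713 lines include 3 repeats, which were dropped. The authors' fold changes and p-values in the table were not used. Some relatives and neighbours of the 23 genes enter the counts of genes but their own values are not reported here.

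The 23 genes were selected on the deposited CPM, and the genes and lists were chosen with earlier results of these data known. Counts were tested with edgeR 4.0.16 in R 4.3.3 (filterByExpr with a count minimum of 10, TMM, quasi-likelihood test), the diets within each strain on 6 libraries and the strains on 12 libraries with 4 groups, averaged over the diets. P-values were adjusted by Benjamini and Hochberg over all genes tested, standard errors come from the test statistic, and calls are adjusted p under 0.05. The scripts were tested on simulated data. DESeq2 1.42.0, other scalings, no filter, a replicate block and fits without each library were alternatives. The p-values measure the spread between mice of a group.

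Positions and transcripts come from GENCODE M21 and RefSeq (GRCm38) and not from the files, with 22 of the 23 genes placed. Relatives were found with BLAST+ 2.17.0, proteins at 70% identity and 70% coverage and transcripts of retrocopies at 80% and 70%. The transcript rule was added after seeing the data, because 4 retrocopies have no annotated protein. Genes were named by level, diet p, list membership, closeness to the limit and protein identity, and members with clone-type symbols were named beside these. The eosinophil and granulocyte marker lists were added after seeing the data.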

Additional observations from a re-analysis of the deposited data

Results flagged for a closer look

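Among the genes related to or next to the strain-only genes, Cyp2c40 was singled out because its strain difference itself differed between the diets. The strain by diet term was 4.29 on the log2 scale (SE 0.64, adjusted p = 0.0275 with edgeR's quasi-likelihood test on 12 libraries). The log2 difference of ICR over C57BL/6J was 1.56 on CDAHFD and -2.73 on ND. In ICR, Cyp2c40 averaged 1.61 ± 0.578 CPM on CDAHFD and 3.99 ± 2.63 CPM on ND, and in C57BL/6J 0.538 ± 0.0801 CPM on CDAHFD and 26.4 ± 10.2 CPM on ND (SD, n = 3 each). The cause of this difference was not tested.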

How the results depend on the processing

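The 15 ICR-only and 8 C57BL/6J-only genes were all kept when any 1 library was left out (15 to 17 and 8 to 9 genes in all). CPM on plain library totals kept 10 of the 15 and 7 of the 8 (12 and 8 genes in all), and FPKM kept 9 and 6 (11 and 7 in all). With a fold of at least 4 there were 26 and 14, and with at least 16 there were 7 ICR-only genes. ND libraries alone gave 30 and 22 genes and CDAHFD libraries alone 31 and 24, each including the 23. Scaling by library totals alone moved the median log2 change of diet by 0.61 in ICR and 0.65 in C57BL/6J and gave 7 called ICR-only genes instead of 4. Calls gained were Cck (1.41), Gm5506 (0.83), Gm9825 (0.78), Pcna-ps2 (1.24) and Olfr1034 (0.89), and calls lost were C1rb, Gm5077 and Cebpe. It turned the sign of Ccr3 (0.38), Cyp2c39 (0.29), Eif3j2 (0.50, adjusted p = 0.0142), Gm5499 (0.23), Gm7292 (0.48), Trim43b (0.34) and Zfp125 (0.31), of which none was called before. Without 1 library, 3 to 5 ICR-only and 4 to 6 C57BL/6J-only genes were called for diet. Ccr3 then ranged from -0.53 to 0.07, Cyp2c39 from -0.70 to 0.19, Gm5900 from -0.08 to 0.17, Gm7292 from -0.39 to 0.27 and Trim43b from -0.72 to 0.48. Pcna-ps2 was called for diet by DESeq2 (adjusted p = 0.0277). Of the close relatives 8 were called between strains on ND alone and 6 at 90% identity, instead of 13. Of the adjacent genes 11 were called on CDAHFD alone and 10 on ND alone instead of 17, and 38 of 86 genes within 200 kb. Without 1 library the counts were 11 to 14 relatives, 15 to 17 adjacent genes and 5 parents. Cyp2c29 was lower in ICR on CDAHFD alone (-1.38, adjusted p = 0.0255) and higher on ND alone (1.37, adjusted p = 0.0193), where C1s stood at 0.08, and without 1 library Cyp2c29 ranged from -0.23 to 0.15. Over 580 values of single genes under alternatives, 511 kept direction and call, 27 lost the call, 15 gained it and 27 changed sign. Same-numbered mice correlated between -0.114 and 0.401 and were not paired by number. A replicate block called 4 ICR-only and 6 C57BL/6J-only genes for diet, 14 relatives, 17 adjacent genes and 5 parents, turned Trim43b to 0.02, and the block called C1ra (adjusted p = 0.0151). Low counts in the strain without expression limit every ratio between the strains.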
